A study of Mus musculus with 4 samples.

Results

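Nitric oxide and arginine metabolism was followed here through 9 genes, Nos2, Arg1, Arg2, Ass1, Asl, Odc1, Oat, Gch1 and Ddah2. They are enzymes that make arginine, that use it or its product ornithine, or that support or regulate nitric oxide synthesis. They were chosen by name, with earlier results of these data known. All 9 were among the 14323 genes of the deposited table. The study held 4 RNA-seq libraries of C57BL/6 mouse blood progenitor cultures, 1 library per group. Short-term haematopoietic stem cells (ST-HSC) and MPP2 cells, a multipotent progenitor population, were plated at 100 cells. They grew into colonies over 5 to 7 days in semi-solid medium, fed with GM-CSF, IL-3, IL-6 and stem cell factor. Each cell type received 0.05 µM 4-hydroxytamoxifen (4OHT), which induced the leukaemia fusion MLL-ENL in cells of the study's model mouse, or ethanol alone. The 4 groups are therefore ST-HSC with ethanol, ST-HSC with 4OHT, MPP2 with ethanol and MPP2 with 4OHT. The ethanol cultures come from the same model and are labelled controls. The labels do not name the promoter or recombinase behind the induction, and no group received 4OHT without the fusion, so an effect of 4OHT and one of MLL-ENL cannot be told apart. With no replicate, a difference between a pair of libraries has no replicate check, and intervals below cover counting error only.

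Arginine is the substrate of enzymes that draw on it in parallel. Inducible nitric oxide synthase (Nos2) turns arginine into nitric oxide and citrulline and is best known from activated macrophages and other myeloid cells. It needs tetrahydrobiopterin, whose synthesis starts with GTP cyclohydrolase (Gch1), and it is inhibited by methylated arginines, and Ddah2 belongs to the dimethylarginine dimethylaminohydrolase family that breaks these down. The arginases split arginine into urea and ornithine, Arg1 in the cytosol and Arg2 in mitochondria. Ornithine then goes to polyamines through ornithine decarboxylase (Odc1) or towards proline and glutamate through ornithine aminotransferase (Oat). Argininosuccinate synthase (Ass1) and argininosuccinate lyase (Asl) rebuild arginine from citrulline.

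The sequences that bear on these measurements are those of Ass1 and its processed copy, because they limit how the Ass1 value can be read. Gm5424, annotated as a processed pseudogene (GRCm38 chromosome 10, 62071123 to 62072362, plus strand), aligned to the whole 1236-base coding sequence of Ass1 (chromosome 2, 31470207 to 31520672, plus strand, 16 exons) with no gap. The sequences differed at 6 bases and were 99.5% identical. The 60-base stretch with the most differences, bases 370 to 429 of the Ass1 coding sequence from GENCODE M21, is shown with the 2 differing bases in capitals.
Ass1: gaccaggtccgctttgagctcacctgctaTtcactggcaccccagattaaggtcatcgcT
Gm5424: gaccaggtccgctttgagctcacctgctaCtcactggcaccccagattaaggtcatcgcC
Many short reads from the coding part of one gene would therefore match the other equally well, and how such reads were assigned is not given in the sources used here.

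RefSeq promoter sequences (GRCm38.p6) were at hand for 5 of the 9 genes, Ass1, Oat, Odc1, Gch1 and Ddah2, and not for Nos2, Arg1, Arg2 or Asl. The 250 bases before each start were searched on both strands for 6 motifs. Ass1 held an E-box (CACGTG), the site bound by Myc-family factors, 36 to 31 bases before its RefSeq start. The GENCODE gene starts further upstream, so the motif lies within that gene model. That motif lay in 6.02% of the 32851 promoters searched. The 30 bases around it, chromosome 2:31470222-31470251 on the plus strand, are shown with the motif in capitals.
Ass1 E-box: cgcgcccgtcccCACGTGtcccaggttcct
Gch1, shown because its level differed between the cell types, held a cAMP-response half-site (TGACG) 88 to 84 bases and a CCAAT box 70 to 66 bases before its start. Its window, chromosome 14:47189414-47189663 on the minus strand, is shown with both in capitals.
Gch1 promoter: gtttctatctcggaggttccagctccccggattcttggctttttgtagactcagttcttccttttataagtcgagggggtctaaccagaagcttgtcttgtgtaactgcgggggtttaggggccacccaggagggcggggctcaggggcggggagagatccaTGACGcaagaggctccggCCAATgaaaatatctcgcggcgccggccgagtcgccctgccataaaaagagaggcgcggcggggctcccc
The half-site was in 17.8% of all promoters and CCAAT in 33.8%. Oat held 2 CCAAT boxes, Odc1 a TGACG half-site, and Ass1 also an NF-kB-type site (GGGA, 4 bases of any kind and CC, in 17.6% of promoters). None of the 5 windows held the ATF4-type TGATGNAA (3.45% of promoters) or the interferon-type element of GAAA, 2 bases of any kind and GAAA (2.98%). These are matches of letters and say nothing of binding.

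Values are normalized counts as the authors deposited them, reads divided by a scaled library size, so that 1 read is worth 0.0695 to 0.0802 normalized counts. The libraries held between 12907412 and 14317891 reads. They were colonies rather than the starting cells: 9 detected neutrophil markers summed to 22654 to 42961 normalized counts, against 141 to 214 for 10 stem and progenitor markers, and Slamf1 was at 0 in both ST-HSC libraries. Log2 differences are of the normalized count plus 0.5. A 2-fold difference means 1 or more on that scale, and the 11370 genes whose mean over the libraries reached 1 normalized count were tested. Ddah2 did not reach that mean, which left 8 of the 9 genes. Since these are bulk cultures, fewer cells of a type and less RNA per cell cannot be told apart.

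Nos2 was lower with 4OHT in both cell types, and most of all in the ST-HSC cultures. The gene (chromosome 11, 78920787 to 78960254, plus strand, 27 exons) measured 11.4 normalized counts in ST-HSC with ethanol, 0.934 in ST-HSC with 4OHT, 5.84 in MPP2 with ethanol and 2.65 in MPP2 with 4OHT. These stand on 164, 13, 81 and 33 reads. Both ethanol libraries were above both 4OHT libraries, and the order of the cell types was opposite in the 2 treatments.

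The ratio of 4OHT to ethanol for Nos2 was 0.0819 in ST-HSC cultures (exact 95% counting interval 0.0427 to 0.144), a 12.2-fold lower level and a log2 difference of -3.05. No other of the 11370 genes had a lower log2 difference there, although a constant of 0.1 in place of 0.5 put Nos2 at rank 2. In MPP2 cultures the ratio was 0.453 (0.293 to 0.687), a log2 difference of -1.01 and rank 190 from the lowest, and under 2-fold with a constant of 2. The MPP2 difference exceeded the ST-HSC one by 2.04 on the log2 scale, and 0.387% of genes had one larger in size. Nos2 was thus 0.513 times as high in MPP2 as in ST-HSC with ethanol (0.388 to 0.673), and 2.83 times as high with 4OHT (1.45 to 5.87). The difference between cell types could not be tested with 4 libraries.

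Arg1, the cytosolic arginase, was also lower with 4OHT in both cell types, and here the larger difference was in MPP2 cultures. The gene (chromosome 10, 24915221 to 24927484, minus strand, 8 exons) measured 2.16 and 0.862 normalized counts in ST-HSC with ethanol and 4OHT, and 9.09 and 1.36 in MPP2. The reads were 31, 12, 126 and 17. The MPP2 ethanol library stood apart above the others, and the 2 4OHT libraries were the lowest.

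The 4OHT to ethanol ratio of Arg1 was 0.150 in MPP2 (0.0847 to 0.250), 6.67-fold lower, with a log2 difference of -2.36 that ranked 15 from the lowest. In ST-HSC it was 0.40 (0.187 to 0.801), and the log2 difference of -0.96 stayed just under the 2-fold rule. The difference between cell types was -1.40, opposite in sign to that of Nos2. With ethanol, Arg1 was 4.22 times as high in MPP2 as in ST-HSC (2.83 to 6.47). With 4OHT the ratio was 1.58, with an interval that includes equality (0.712 to 3.63).

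**Figure D1:**
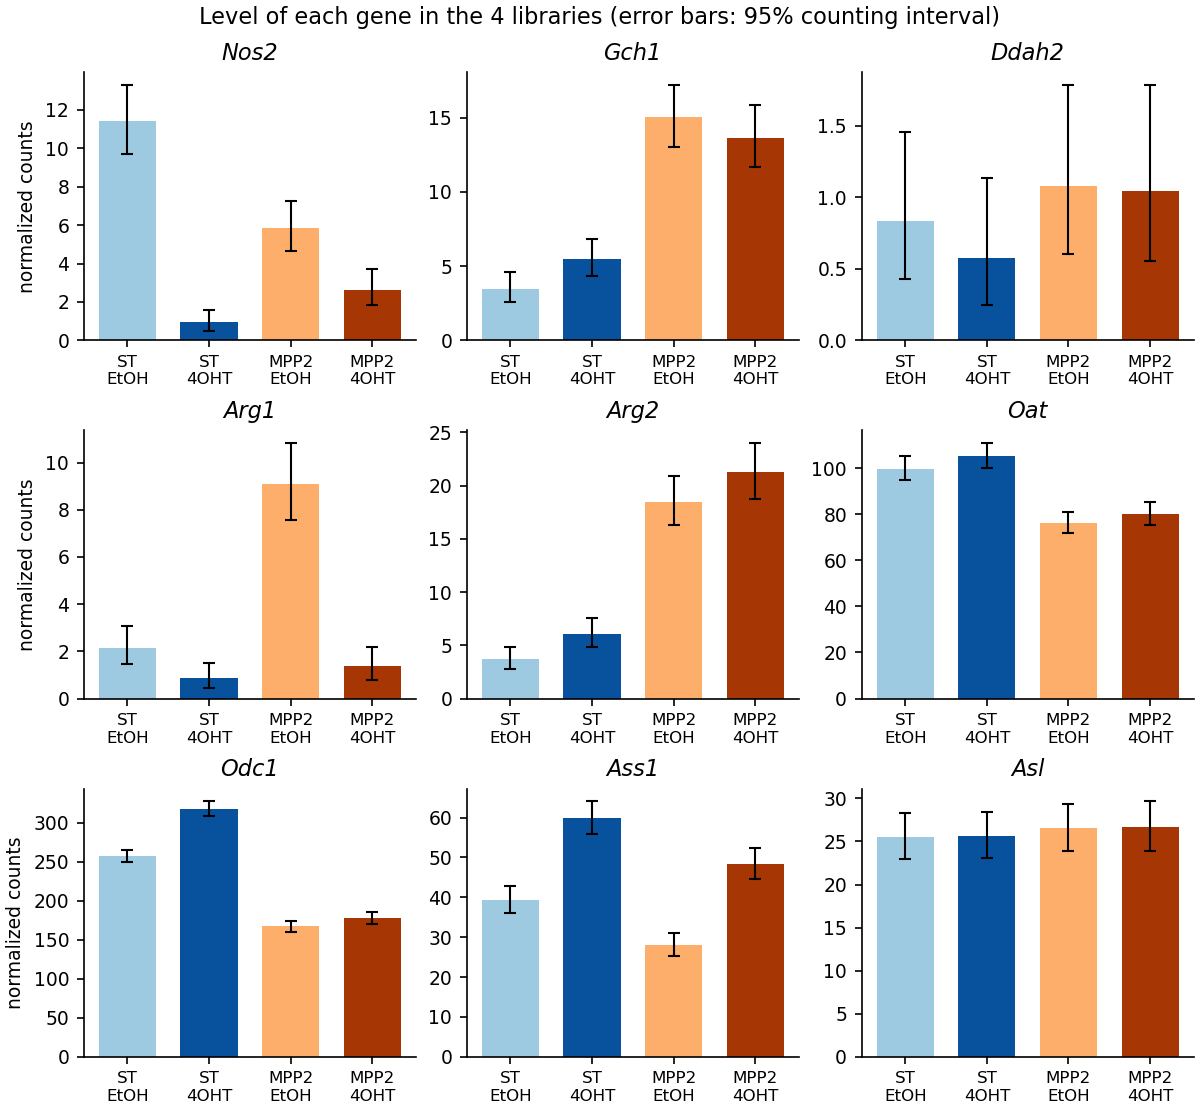
Normalized counts (y axis, linear from 0, a scale of its own in each panel) of the 9 genes in the 4 libraries (x axis; ST, ST-HSC; EtOH, ethanol), with exact 95% Poisson counting intervals as error bars. Nos2 is highest in ST-HSC with ethanol at 11.4 and Arg1 in MPP2 with ethanol at 9.09, while Asl stays between 25.5 and 26.6.

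Set against all genes, 1 of the 8 genes tested was 2-fold lower with 4OHT in ST-HSC (Nos2), where 0.545% of all genes were, and 2 in MPP2 (Nos2 and Arg1), where 1.7% were. Nos2 alone was 2-fold lower in both cell types, as were 0.211% of all genes. None of the 8 was 2-fold higher in ST-HSC (2.1% of all genes) or in MPP2 (1.32%). Nos2 and Arg1, 2 of the 8, had 4OHT differences that were 2-fold or more apart between the cell types, as had 3.29% of all genes. The median log2 difference of the 8 was 0.19 in ST-HSC and 0.04 in MPP2, beside -0.004 and -0.002 for all genes, so the set as a whole did not lie low. The 8 were chosen with earlier results of these data known, so these shares describe the set and do not test it.

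In the fit shared by both cell types (limma, 4 libraries, 1 residual degree of freedom), none of the 8 passed a Benjamini-Hochberg adjusted p of 0.05 for 4OHT, where 0.0528% of all genes did. At an unadjusted p under 0.05 there were 4, Nos2, Arg1, Ass1 and Arg2, and 14.2% of all genes. The shared difference was -2.03 for Nos2 (SE 0.476, limma adjusted p = 0.184) and -1.66 for Arg1 (SE 0.339, limma adjusted p = 0.147). Count models on the recovered reads gave other answers. edgeR's quasi-likelihood test called Nos2, Arg1 and Ass1 (adjusted p = 0.0147, 0.00966 and 0.00804, with 4.33% of all genes called), and DESeq2 called Nos2 (adjusted p = 0.0218, 1.39% of all genes). limma with a mean trend and robust variances called Arg1 and Ass1 (adjusted p = 0.0157 and 0.00462, 4.6% of all genes), with Nos2 at an adjusted p of 0.254. Over all alternatives tried, the adjusted p ran from 0.0143 to 1 for Nos2 and from 0.0094 to 1 for Arg1.

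**Figure D2:**
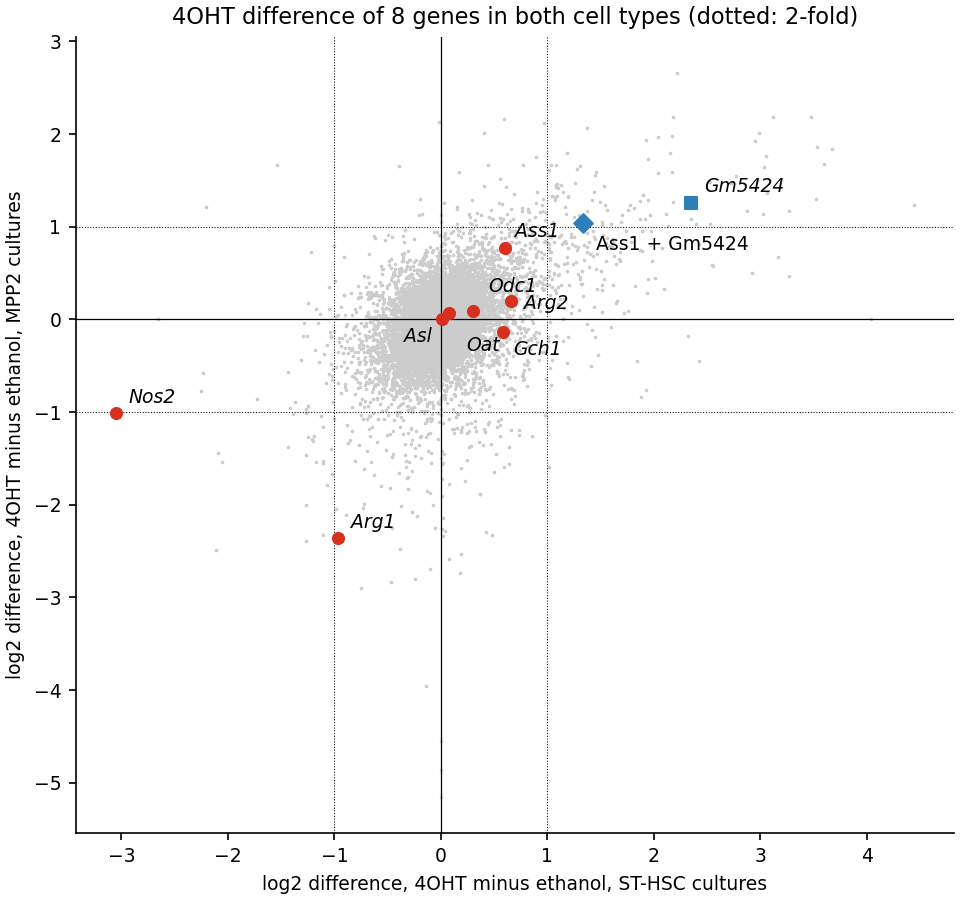
Log2 difference of 4OHT minus ethanol in ST-HSC cultures (x axis) and MPP2 cultures (y axis) for the 8 tested genes (red circles), Gm5424 (blue square), the sum of Ass1 and Gm5424 (blue diamond) and all other tested genes (grey points); dotted lines mark 2-fold. Nos2 lies far to the left at -3.05 and -1.01, and Arg1 far down at -0.96 and -2.36.

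Arg2, the mitochondrial arginase, differed mainly with the cell type. The gene (chromosome 12, 79130777 to 79156301, plus strand, 8 exons) measured 3.69 and 6.11 normalized counts in ST-HSC with ethanol and 4OHT, and 18.5 and 21.3 in MPP2. Both MPP2 libraries were above both ST-HSC libraries. The gene overlaps Gm48780 and Vti1b on the opposite strand; the library kit keeps strand, but the strand setting of the counting is not given in the sources used here.

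Arg2 was higher in MPP2 by 1.95 on the log2 scale (SE 0.163, limma adjusted p = 0.00666), 5.01 times as high with ethanol and 3.48 times with 4OHT. The 4OHT to ethanol ratio was 1.66 in ST-HSC (1.16 to 2.38) and 1.15 in MPP2 (0.966 to 1.37), and the shared 4OHT difference of 0.43 had a limma adjusted p of 0.344.

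The arginases together measured 5.84 and 6.97 normalized counts in the ST-HSC libraries and 27.6 and 22.6 in the MPP2 libraries, ethanol first, so their sum followed the cell type. The part of it from Arg1 differed with 4OHT. Arg1 gave 36.9% of arginase reads in ST-HSC with ethanol (exact 95% interval 26.6% to 48.1%) and 12.4% with 4OHT (6.56% to 20.6%). In MPP2 it gave 33% (28.3% to 38.0%) and 6.03% (3.55% to 9.48%). In each cell type the 2 intervals did not overlap.

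Per kilobase of transcript, Nos2 stood at 1.86 times the level of Arg1 in ST-HSC with ethanol (1.26 to 2.83) and at 0.382 times with 4OHT (0.161 to 0.915). In MPP2 the ratio was 0.227 with ethanol (0.169 to 0.302) and 0.684 with 4OHT (0.370 to 1.31). The balance of the 2 transcripts therefore shifted towards Arg1 in ST-HSC and towards Nos2 in MPP2, while both were lower with 4OHT in each.

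Ass1, which makes argininosuccinate from citrulline, was higher with 4OHT in both cell types as listed. It measured 39.4 and 59.9 normalized counts in ST-HSC with ethanol and 4OHT, and 28.1 and 48.4 in MPP2. Both 4OHT libraries were above both ethanol libraries. The ratios were 1.52 in ST-HSC (1.37 to 1.70) and 1.72 in MPP2 (1.52 to 1.96), and the shared difference was 0.69 (SE 0.132, limma adjusted p = 0.134).

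Its copy Gm5424, looked at only after the values were seen, measured 14.8, 77.7, 26.8 and 64.8 normalized counts in the same order. The 4OHT to ethanol ratio was 5.25 in ST-HSC (4.52 to 6.10) and 2.41 in MPP2 (2.13 to 2.74), ranks 30 and 74 from the highest of all genes. Since 84.7% of the 31-base words of Gm5424 also occur in Ass1 transcripts, the split of reads between the 2 is uncertain, and the Ass1 value alone may not be that of the gene.

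The sum of Ass1 and Gm5424 does not depend on how reads were split between the 2. Reads given to neither would be missing from it, and it includes any transcripts of Gm5424 itself. It was 54.2 normalized counts in ST-HSC with ethanol, 137.6 with 4OHT, 54.9 in MPP2 with ethanol and 113.2 with 4OHT. The ethanol libraries were nearly equal and the 4OHT libraries were 2.54 times (2.34 to 2.76) and 2.06 times (1.89 to 2.26) as high. The shared difference of the sum was 1.19 (SE 0.143), with a limma adjusted p of 0.0767 and an edgeR adjusted p of 0.000236. Gm5424 held 27.3% of these reads in ST-HSC with ethanol and 48.9% to 57.3% in the other 3 libraries.

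**Figure D3:**
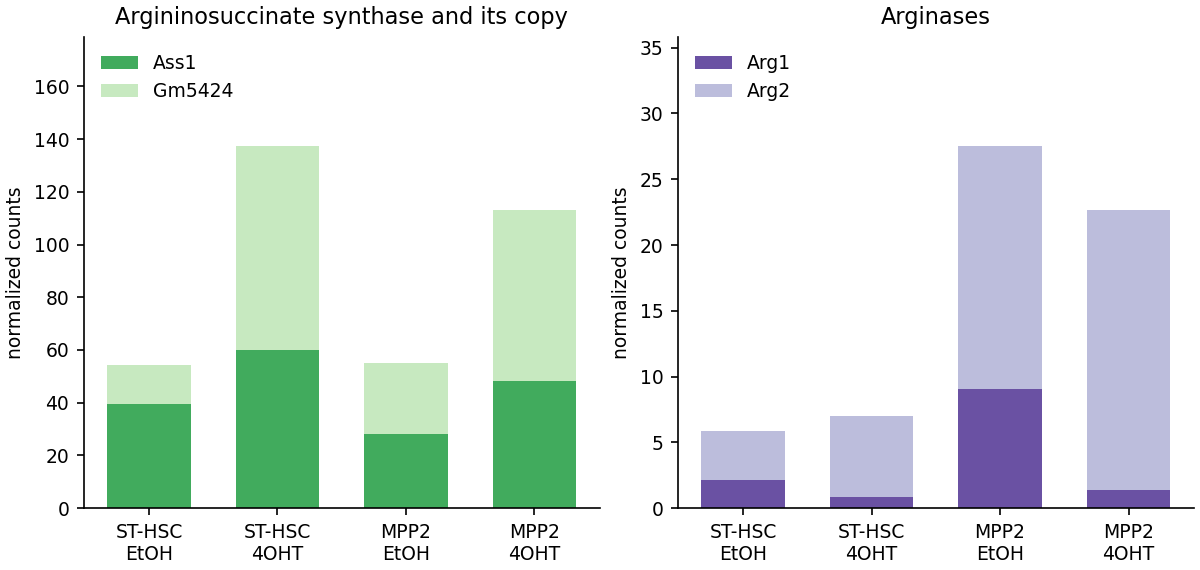
Stacked normalized counts (y axes, linear from 0) of Ass1 and Gm5424 on the left and of Arg1 and Arg2 on the right in the 4 libraries (x axes). The Ass1 plus Gm5424 bar is 54.2 and 54.9 with ethanol and 137.6 and 113.2 with 4OHT, whereas the arginase bars differ by cell type and Arg1 is the smaller part in every library.

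Asl, the next step of arginine synthesis (chromosome 5, 130011258 to 130029247, minus strand, 16 exons), was nearly level over the 4 libraries. It measured 25.5 and 25.7 normalized counts in ST-HSC and 26.6 and 26.6 in MPP2. The 4OHT to ethanol ratios of 1.00 in ST-HSC (0.867 to 1.17) and 1.00 in MPP2 (0.862 to 1.17) bound any difference in counting terms. Ass1 as listed, the step before, was higher with 4OHT beyond counting error, and Asl was not. The Ass1 difference did not pass the main limma test, and its split of reads with Gm5424 is uncertain.

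Among the genes that use ornithine, Odc1, the first enzyme of polyamine synthesis, was the most abundant of the 9 per kilobase in every library. The gene (chromosome 12, 17544794 to 17551505, plus strand, 12 exons) measured 257 and 318 normalized counts in ST-HSC with ethanol and 4OHT, and 167 and 178 in MPP2. Both MPP2 libraries were below both ST-HSC libraries. Odc1 was lower in MPP2, with a log2 difference of -0.73 (SE 0.135, limma adjusted p = 0.0348). The call was lost in 4 of 13 alternatives, with adjusted p values up to 0.0806. Pseudogenes share 31.3% of its 31-base words, led by Gm7993 with 19.4% and Gm9115 with 17.1%, so its level is uncertain too. The 4OHT to ethanol ratio was 1.24 in ST-HSC (1.18 to 1.29) and 1.06 in MPP2 (1.00 to 1.13).

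Oat, which carries ornithine towards proline and glutamate (chromosome 7, 132557478 to 132576398, minus strand, 10 exons), measured 99.8 and 105.3 normalized counts in ST-HSC and 76.3 and 80.0 in MPP2. With 4OHT the ratio was 1.06 in ST-HSC (0.980 to 1.14) and 1.05 in MPP2 (0.961 to 1.14), both within counting error. The difference between cell types, -0.39, did not pass (SE 0.126, limma adjusted p = 0.094). The annotation places Oat in an overlap with Fgfr2 on the same strand.

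Gch1, the entry to tetrahydrobiopterin, followed the cell type as Arg2 did. The gene (chromosome 14, 47153895 to 47189413, minus strand, 6 exons) measured 3.48 and 5.46 normalized counts in ST-HSC with ethanol and 4OHT, and 15.0 and 13.6 in MPP2. Both MPP2 libraries were above both ST-HSC libraries. Gch1 was higher in MPP2 by 1.60 on the log2 scale (SE 0.205, limma adjusted p = 0.0179). With 4OHT it was 1.57 times as high in ST-HSC (1.09 to 2.29), and 0.909 times in MPP2, within counting error (0.738 to 1.12). The cofactor gene and the enzyme that uses the cofactor therefore had different patterns: where Nos2 was highest, Gch1 was lowest.

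Ddah2 (chromosome 17, 35059035 to 35062095, plus strand, 7 exons) was near the limit of detection, with 0.834 and 0.575 normalized counts in ST-HSC and 1.08 and 1.04 in MPP2, from 8 to 15 reads. Its ratios, 0.689 in ST-HSC (0.244 to 1.83) and 0.964 in MPP2 (0.422 to 2.17), have intervals that span equality widely. A difference was not detectable at this depth.

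Between cell types, 2 of the 8 genes tested were higher in MPP2 (Arg2 and Gch1), where 9.88% of all genes were, and 1 was lower (Odc1), where 5.31% were. Marker genes of other cell types were higher in MPP2 too: limma called 8 of 8 megakaryocyte markers, which summed to 21.6 and 27.1 normalized counts in ST-HSC and 470 and 443 in MPP2. Gp6 was at 0 in both ST-HSC libraries, so it reached the required mean through MPP2 alone and its direction was fixed in advance. limma also called 9 of 10 mast cell and basophil markers, among them Tpsb2, to which the same applies. The part of these cell types in the Arg2 and Gch1 differences was not tested. Per kilobase, Odc1, Oat and Ass1 were the first 3 in each of the 4 libraries, at 75.7 to 143.9, 35.4 to 48.9 and 16.6 to 35.3 normalized counts per kilobase. Asl and Arg2 followed, apart from ST-HSC with ethanol, where Nos2 at 2.72 was just above Arg2 at 2.58. With 4OHT, Nos2 was the lowest of the 9 in both cell types, at 0.223 and 0.632 normalized counts per kilobase, below Ddah2 at 0.428 and 0.777. The neighbours Nos2 and Ddah2 rest on 8 to 33 reads there.

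The wider pathway, 70 genes in 9 lists, had 62 in the authors' table, of which 58 were tested. With 4OHT, 2 were 2-fold higher in ST-HSC (Ckb and Slc6a8; 2.1% of all genes were) and 1 was 2-fold lower in MPP2 (Ddah1; 1.7% of all genes). None passed limma's adjusted p for 4OHT, as 0.0528% of all genes did, so these counts are near those of all genes. The median log2 difference was 0.139 in ST-HSC and 0.077 in MPP2. Ckb and Ddah1 fell outside the rule for naming genes and are named after their values were seen; Ddah1, the other enzyme that clears methylarginines, measured at most 3.10 normalized counts.

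Of the other nitric oxide synthases, the one measured was near the limit of detection. Nos1 was not analysed here. Nos3, the endothelial synthase, measured 0.431 to 1.20 normalized counts. The synthase partners Nosip and Nos1ap were at 34.4 to 43.4 and 8.12 to 21.7. Among tetrahydrobiopterin genes, Qdpr, which recycles the cofactor, was lower in MPP2 by -0.62 on the log2 scale (limma adjusted p = 0.0417). None of the 6 genes of that list that were tested was 2-fold apart with 4OHT.

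Arginine uptake held a gene that differed in opposite directions. Slc7a2, the inducible cationic amino acid transporter, named after its values were seen, measured 7.23 and 13.0 normalized counts in ST-HSC with ethanol and 4OHT, and 38.9 and 23.5 in MPP2. The ratio was 1.80 in ST-HSC (1.41 to 2.31) and 0.604 in MPP2 (0.523 to 0.698). It was higher in MPP2 by 1.59 (SE 0.364, limma adjusted p = 0.0496), a call lost with limma's trend and robust variances (adjusted p = 0.194) and with DESeq2 (adjusted p = 0.122). Slc7a5 and Slc3a2, the chains of a large neutral amino acid transporter, were the most abundant of that list at 268 to 386 and 218 to 323 normalized counts.

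Of the genes around ornithine and methylarginine, several were lower in MPP2 than in ST-HSC. Prmt1 and Prmt5, which methylate protein arginines, were lower by log2 differences of -0.79 and -0.76 (limma adjusted p = 0.0277 and 0.0369). The mitochondrial aspartate-glutamate carriers Slc25a12 and Slc25a13 were lower by -0.60 and -0.57 (limma adjusted p = 0.045 and 0.0482). Over the 58 pathway genes, 13 were lower in MPP2 and 5 higher, where 5.31% and 9.88% of all genes were, with a median of -0.204, beside a median of -0.024 over all genes tested. None of these passed the limma test for 4OHT. Eif5a, the translation factor that carries the polyamine-derived hypusine, measured 1517 and 1665 normalized counts in ST-HSC and 1088 and 1132 in MPP2.

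Slc6a8, the creatine transporter, was the pathway gene with at least 10 normalized counts that differed most with 4OHT. It measured 2.02 and 6.47 normalized counts in ST-HSC, and 8.15 and 13.6 in MPP2. The ratio was 3.21 in ST-HSC (2.09 to 5.06) and 1.67 in MPP2 (1.31 to 2.14). The shared 4OHT difference of 1.09 had a limma adjusted p of 0.137 and an edgeR adjusted p of 0.0341. Gatm, which makes the creatine precursor from arginine, lay between 50.8 and 72.7 normalized counts, and the glutathione and thioredoxin reductases Gsr and Txnrd1 between 933 and 1182 and between 265 and 355.

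**Figure D4:**
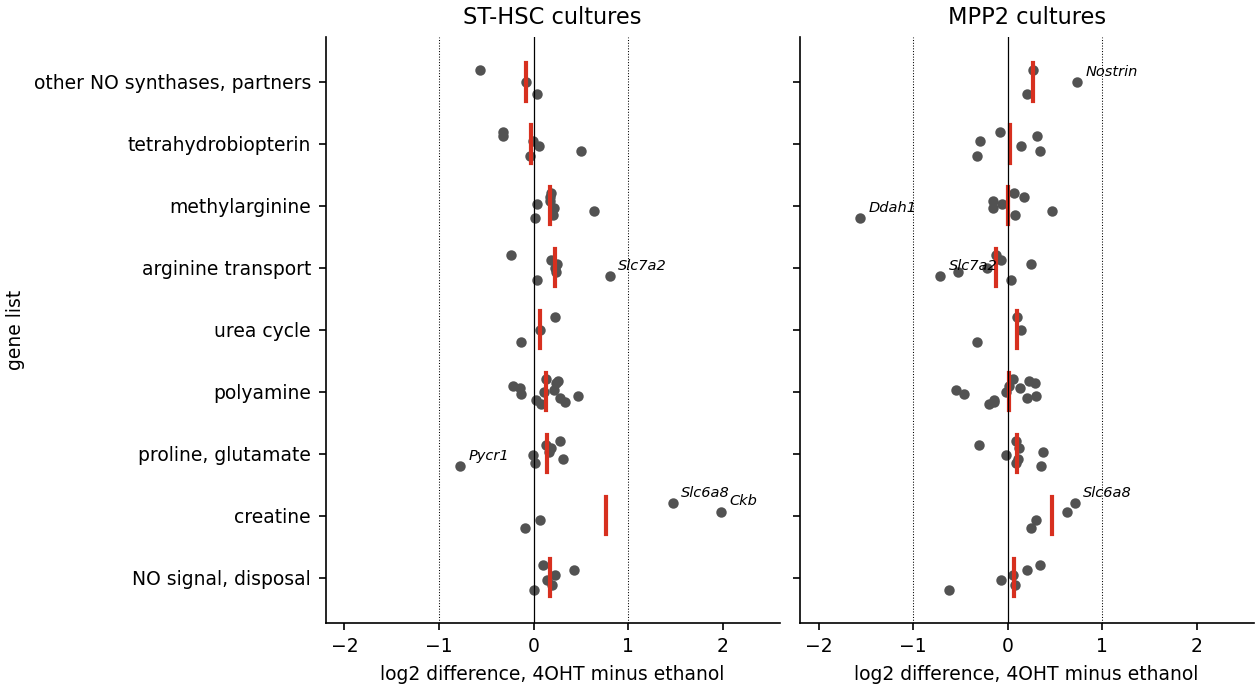
Log2 difference of 4OHT minus ethanol (x axes) for each tested gene of the 9 pathway lists (rows) in ST-HSC cultures (left) and MPP2 cultures (right); each point is a gene, red bars are list medians, dotted lines mark 2-fold and genes beyond 0.7 are named. Most points lie between the dotted lines, with Ckb and Slc6a8 beyond them in ST-HSC and Ddah1 in MPP2.

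Among genes known to act upstream of Nos2 and Arg1, 1 in each list was 2-fold apart with 4OHT. Of all genes, 2.1% were 2-fold higher and 0.545% lower in ST-HSC, and 1.32% and 1.7% in MPP2. Of 16 Nos2 regulators (NF-kB, interferon and Toll-like receptor genes) it was Relb, an NF-kB subunit, which measured 5.63 and 12.2 normalized counts in ST-HSC and 12.9 and 27.3 in MPP2. Its shared 4OHT difference was 1.05 (limma adjusted p = 0.0779, edgeR adjusted p = 0.00456). Of 11 Arg1 regulators Irf4, a transcription factor of alternatively activated macrophages, was 2-fold lower in both cell types, as were 0.211% of all genes. It measured 4.45 and 1.80 normalized counts in ST-HSC and 8.66 and 3.61 in MPP2. Irf4 fell outside the naming rule and is named after its values were seen.

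Macrophage genes that commonly accompany Nos2 did not share its pattern. Il6, an inflammatory cytokine, measured 3.13 and 1.65 normalized counts in ST-HSC and 56.9 and 7.22 in MPP2, and Ptgs2, which makes prostaglandins, 8.14 and 7.55 and then 25.1 and 3.45. Both were thus lower chiefly in MPP2, where the Arg1 difference was the larger. Cxcl10, an interferon-induced chemokine, was higher with 4OHT by log2 differences of 1.75 and 1.18, and Irg1, which makes itaconate, by 1.51 and 0.32. Of the 8 genes tested, 2 were 2-fold higher and none lower in ST-HSC, where 2.1% and 0.545% of all genes were. In MPP2 1 was higher and 2 lower, beside 1.32% and 1.7% of all genes.

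Genes that commonly accompany Arg1 were split as well. Mrc1, the mannose receptor, measured 30.0 and 83.3 normalized counts in ST-HSC and 32.6 and 99.2 in MPP2, and so was higher with 4OHT. Tgm2, a transglutaminase, measured 34.6 and 7.76 in ST-HSC and 110.8 and 40.5 in MPP2, and so was lower. Of the 8 tested, 1 was 2-fold higher and 1 lower in each cell type. Of all genes, 2.1% were higher and 0.545% lower in ST-HSC, and 1.32% and 1.7% in MPP2.

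Markers of the cells that could hold these transcripts also moved. Of 10 macrophage markers 9 were in the table and 7 were tested. With 4OHT, 2 were 2-fold higher in ST-HSC (2.1% of all genes), 3 in MPP2 (1.32% of all genes) and none lower. Their sum was 264 and 412 normalized counts in ST-HSC and 340 and 518 in MPP2, with C1qb and C1qc at 0 in MPP2 with ethanol. Within each cell type this sum was higher with 4OHT, and its part in the Nos2 and Arg1 differences was not tested. The neutrophil sum was 30683 and 22654 in ST-HSC and 42961 and 41762 in MPP2, with no marker 2-fold apart.

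Most mast cell and basophil markers were lower with 4OHT in both cell types. Of 10 tested, 4 were 2-fold lower with 4OHT in ST-HSC, where 0.545% of all genes were. In MPP2 7 were, beside 1.7% of all genes, and none was 2-fold higher in either cell type. Their sum was 211 and 167 normalized counts in ST-HSC and 1575 and 587 in MPP2, with Tpsb2 at 0 in both ST-HSC libraries and Cma1 at 0 in ST-HSC with 4OHT. Eosinophil markers summed to 34.4 and 31.8 in ST-HSC and to 217 and 108 in MPP2. In MPP2, where 1.7% of all genes were 2-fold lower, so were 3 of 5 eosinophil and 5 of 7 erythroid markers tested. The 9 erythroid markers in the table summed to 709 and 539 in ST-HSC and 693 and 422 in MPP2, most of it Tfrc. Hba-a2 and Slc4a1, both in that count of 5, were at 0 in every library but MPP2 with ethanol. They reached the required mean only through that library, so their 2-fold lower level in MPP2 was fixed in advance. Of 8 stem and progenitor markers tested, 4 (Ly6a, Cd34, Procr and Meis1) were 2-fold higher with 4OHT in ST-HSC, as were 2.1% of all genes. None was in MPP2, where 1.32% of all genes were. Their sums were 141 and 214 in ST-HSC and 182 and 183 in MPP2. Kit is in both this list and the mast cell and basophil list, so the sums share it. The part of any of these cell types in the Nos2 and Arg1 differences was not tested.

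The genes with the profile most like each of the 2 were found by the distance between centred log2 values over the 4 libraries, which share all their depth and makeup. The search covered 8594 other genes for Nos2 and 8595 for Arg1, with at least 10 normalized counts in their highest library. Predicted genes, clones, small RNAs and pseudogenes were left out, and Arg1 itself does not reach that level. Whether these distances are smaller than for other genes was not tested. For Nos2 these were Thbs1 (thrombospondin-1, distance 0.884), Hist2h3c1 (a histone of a multi-copy family, uncertain, 0.900), Bnip3 (a mitophagy receptor, 1.16) and Scd1 (a fatty acid desaturase, 1.27). Thbs1 measured 1238 and 298 normalized counts in ST-HSC and 1453 and 500.1 in MPP2. For Arg1 they were Slc18a2 (a vesicular monoamine transporter, 0.763), Adora3 (the adenosine A3 receptor, 0.853), Cdh1 (E-cadherin, 0.888) and Tmtc2 (0.888). Adora3 measured 8.0 and 8.48 normalized counts in ST-HSC and 38.4 and 10.8 in MPP2. With 4OHT it was thus lower in MPP2, as Arg1 was, and not lower in ST-HSC.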

How the data were processed

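RNA-seq was measured in 4 libraries, 1 per group, from total RNA after rRNA depletion with a strand-specific kit, per the labels' protocols. The submitters' processing notes name the mm10 build, Bowtie2, Trimmomatic 0.36, edgeR and RSEM, without roles. The annotation used is not given in the sources used here. The deposited signal values are normalized counts: all 57292 were whole multiples of 1 read (tolerance 1e-06), as reads over a TMM-scaled library size would give, so reads were recovered. Differences were computed on log2(value + 0.5) for 11370 genes with a mean of at least 1 (79.4%). Within a cell type no p-value is possible; ratios carry exact conditional binomial 95% intervals on reads. Shared effects came from limma 3.58.1 (additive in treatment and cell type) with Benjamini-Hochberg adjustment over all genes. edgeR 4.0.16 and DESeq2 1.42.0 on recovered reads, other filters, constants, scalings and a GC correction were alternatives. The limma, edgeR and DESeq2 fits were run on simulated data with no cell type difference and the same 4OHT change in both cell types. These data differ from that setting, so the run does not show how the fits perform on them. Coordinates and shared 31-base words came from GENCODE M21 (GRCm38, the mm10 assembly). All 9 genes were named. Of other listed genes, those named were 2-fold apart or called, with at least 10 normalized counts in 1 library, the 2 most abundant of each pathway list (some are not reported here), and the 4 nearest in profile to Nos2 and Arg1. Members and lists were chosen with earlier results of these data known.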

Additional observations from a re-analysis of the deposited data

Results flagged for a closer look

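Of 34 genes compared, 8 had 4OHT differences in opposite directions in the 2 cell types, 6 of them beyond counting error in both. Of all 11370 genes tested, 38.1% went in opposite directions and 5.36% beyond counting error in both. With 1 library per group the difference between cell types was not tested. For Gch1 the MPP2 log2 difference minus the ST-HSC one was -0.717, with the MPP2 value within counting error. For the transporter Slc7a2 it was -1.519, higher with 4OHT in ST-HSC and lower in MPP2. The amino acid transporter chains Slc7a5 and Slc3a2 gave -0.764 and -0.254, in the same sense. The arginine methyltransferase Prmt5 gave -0.324, again higher in ST-HSC and lower in MPP2. Nos1ap, a partner of neuronal nitric oxide synthase, gave 0.826 and Oaz1, the antizyme that inhibits ornithine decarboxylase, 0.274, both lower in ST-HSC and higher in MPP2. The last of the 8, Gatm, was within counting error in ST-HSC.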

How the results depend on the processing

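No paired analysis was possible because the labels give no replicate numbers and each group has 1 library; for the same reason no replicate could be left out. No called value changed sign. The Nos2 cell type difference, never called, was 0.113 and reversed to -0.055 (constant of 2) and -0.175 (edgeR, also with the sum). The shared 4OHT difference of Asl, also never called, was 0.006 and reversed to -0.016 (column sum) and -0.071 (GC trend removed). Summing Ass1 and Gm5424 was chosen after seeing the data. Of the 9 genes, the count 2-fold apart in ST-HSC was 1 and became 2 with a constant of 0.1 (Arg1 added) or with Ass1 and Gm5424 summed. In MPP2 it was 2 and became 1 with a mean of at least 5 (Arg1 filtered out) or a constant of 2 (Nos2 lost), and 3 with the sum (Ass1 added). The count 2-fold apart between cell types in the 4OHT difference was 2 and became 1 with a mean of at least 5. The count with a shared 4OHT effect was 0 and became 2 with a mean of at least 5 (Nos2, Ass1), 1 with a constant of 2 (Ass1), 2 with limma's trend, 3 with edgeR, 1 with DESeq2 and 3 with the sum in edgeR. The count with a cell type difference was 3 and became 6 with limma's trend, 6 with edgeR and 5 with the sum in edgeR; it was 4 with a constant of 2 (Arg1 added) and 2 with no filter, a constant of 0.1, the GC trend removed or no other factor (Odc1 lost).

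Over all genes, the count 2-fold apart went from 301 in ST-HSC to 155 (mean of at least 5) and 154 (constant of 2), and from 343 in MPP2 to 162 and 185. The count with a shared 4OHT effect went from 6 to 0 with no filter, a constant of 0.1, scaling to the column sum or by DESeq2 size factors, the GC trend removed, or no term for the other factor; to 230 (mean of at least 5), 228 (constant of 2), 523 (limma's trend), 492 (edgeR, also with the sum) and 158 (DESeq2). The cell type count went from 1727 to 559 (no filter), 2719 (mean of at least 5), 852 (constant of 0.1), 2890 (constant of 2), 3656 (limma's trend), 3462 (edgeR), 264 (no other factor) and 3477 (the sum in edgeR). The cause of these moves was not tested. Depth limits Ddah2, with 8 to 15 reads, most.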
